A study of Mus musculus with 7 samples.

Results

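The cytosolic HSP70 and HSP110 genes were followed in RNA-seq of mouse spinal cord. The family was taken as 10 genes named by symbol, *Hspa1a*, *Hspa1b*, *Hspa8*, *Hspa2*, *Hspa4*, *Hspa4l*, *Hsph1*, *Hspa12a*, *Hspa14* and *Hspbp1*, out of 55487 genes in the deposited count table, and all 10 were among the 18449 genes with enough counts for a test. Total RNA came from cervical spinal cords at 8 weeks of age, with 4 libraries of *Neat1*-KO; hSOD1G93A mice and 3 of *Neat1*-WT; hSOD1G93A mice, here called Neat1-KO replicates 1 to 4 and Neat1-WT replicates 2 to 4. *Neat1* encodes the long non-coding RNA around which paraspeckles form. Both groups carried hSOD1G93A, the human gene for SOD1 with a mutation known from inherited amyotrophic lateral sclerosis, so no library came from a cord without the transgene. The mice descended from *Neat1* heterozygous parents, and the transgenic line was kept as hemizygotes by crosses to B6/SJLF1 females. The study's methods describe both sexes in its experiments, whereas *Xist*, the X-inactivation RNA, had 0 to 4 counts and the Y-linked *Ddx3y* had 1047 to 1880 counts in these 7 libraries.

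HSP70 proteins are chaperones that bind stretches of unfolded protein and release them in a cycle driven by ATP. J-domain proteins deliver the substrate and start ATP hydrolysis, and nucleotide exchange factors, among them the HSP110 proteins and HSPBP1, open the nucleotide site again. The constitutive HSC70, made from *Hspa8*, serves this cycle in unstressed cells, while *Hspa1a* and *Hspa1b* encode the inducible HSP70, which the transcription factor HSF1 switches on when misfolded protein accumulates.

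Total counts were between 19661878 and 26031517 per library, and the factors that scale library size (TMM, in edgeR) were between 0.991 and 1.01. *Neat1* was at 4.04 to 5.52 CPM, counts per 1000000 after this scaling, in Neat1-KO libraries and at 80.5 to 118 CPM in Neat1-WT libraries, so each library was on the side of its label. The fitted log2 fold change of *Neat1*, Neat1-KO minus Neat1-WT, was -4.25 (adjusted p = 1.52e-08, edgeR quasi-likelihood test). The labels describe a library for each sample and do not say how the animals fall into litters, so p-values cover only the spread between these 7 libraries.

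The family was dominated by *Hspa8* when levels were divided by the length of the annotated exons. Its median over the 7 libraries was 425 CPM per kilobase, and it held 69.0% of the summed level of the 10 genes. Next came *Hspa4* at a median of 44.3, *Hsph1* at 40.5, *Hspbp1* at 32.7, *Hspa12a* at 30.0 and *Hspa4l* at 28.2 CPM per kilobase. Neighbours among these 5 genes overlapped over the libraries, so the order of neighbours is within the spread. Genes farther apart could separate, as *Hspa4*, at 41.0 CPM per kilobase or more, lay above *Hspbp1*, at 39.8 or less. *Hspa2* at 7.76 and *Hspa14* at 4.95 CPM per kilobase lay below all of them without overlap. The inducible genes had the lowest medians, 2.69 for *Hspa1a* and 2.03 CPM per kilobase for *Hspa1b*, and these overlapped each other. *Hspa1a* lay below *Hspa14* in all 7 libraries, while *Hspa1b* reached 4.85 CPM per kilobase in Neat1-WT replicate 3, within the range of *Hspa14*. The levels rest on uniquely mapped reads and were not corrected for sequence shared with other genes. Of windows of 100 bases, 36.6% were unique in *Hspa8*, 43.5% in *Hspa1a* and 50.1% in *Hspa1b*, against 100% in *Hspa2* and 86.9% in *Hspa14*. The order between genes and the share of *Hspa8* are therefore approximate.

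**Figure D1:**
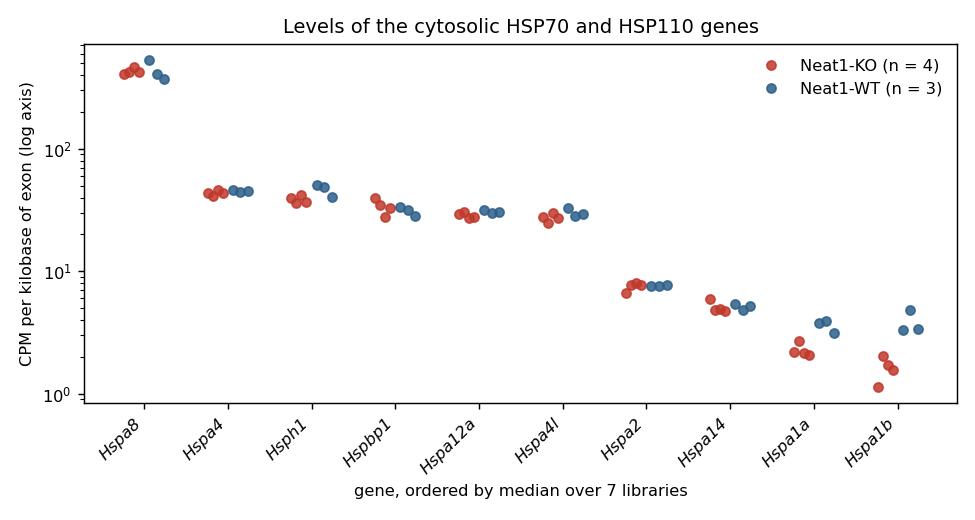
CPM per kilobase of annotated exon (log axis) of each gene in each library, with red points for the 4 Neat1-KO and blue points for the 3 Neat1-WT libraries. *Hspa8* has a median of 425, and the colours separate only for *Hspa1a* and *Hspa1b*, at the bottom of the range.

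*Hspa1a* and *Hspa1b* are neighbours with a single exon each on the minus strand of chromosome 17 (GRCm38, GENCODE M21). *Hspa1a* (ENSMUSG00000091971) spans chr17:34969190-34972156 and *Hspa1b* (ENSMUSG00000090877) spans chr17:34956436-34959238. Their coding sequences, 1926 and 1929 bases long, were identical at 1918 of 1926 aligned positions, with a gap of 3 bases. Only uniquely mapped reads were counted in the study, and of the windows of 100 bases along the transcripts, 43.5% in *Hspa1a* and 50.1% in *Hspa1b* matched no other annotated gene. Inside the coding sequence these shares were 26.9% and 32.0%, and in the rest of the transcript, windows across its border included, 72.6% and 88.0%. Most of the unique windows, 756 of 1247 in *Hspa1a* and 769 of 1354 in *Hspa1b*, thus lay outside the coding sequence or across its border. The read length was not given in the sources used here.

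The promoters of the pair are printed because both genes had lower counts in Neat1-KO libraries, and those of *Hsph1* and *Hspa2* for comparison, each as the 250 bases before the start on the gene's strand (RefSeq, GRCm38.p6). Capitals mark pairs of the heat shock element, the binding unit of HSF1, searched on both strands as GAANNTTC or TTCNNGAA, which can overlap each other. The windows are at chr17:34972157-34972406 for *Hspa1a*, chr17:34959239-34959488 for *Hspa1b* and chr5:149636337-149636586 for *Hsph1*, all on the minus strand, and at chr12:76404120-76404369 on the plus strand for *Hspa2*. The RefSeq starts of *Hsph1* and *Hspa2* lie inside the GENCODE M21 gene spans given below, so both windows overlap those spans.
Hspa1a: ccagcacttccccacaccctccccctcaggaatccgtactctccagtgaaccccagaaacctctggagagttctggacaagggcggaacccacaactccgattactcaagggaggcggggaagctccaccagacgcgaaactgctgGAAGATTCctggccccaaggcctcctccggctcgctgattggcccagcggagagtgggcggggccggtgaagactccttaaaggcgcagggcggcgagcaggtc
Hspa1b: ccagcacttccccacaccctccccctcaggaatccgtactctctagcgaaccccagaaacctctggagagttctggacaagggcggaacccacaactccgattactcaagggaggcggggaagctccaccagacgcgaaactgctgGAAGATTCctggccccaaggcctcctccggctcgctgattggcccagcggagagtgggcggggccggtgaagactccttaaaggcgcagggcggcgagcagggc
Hsph1: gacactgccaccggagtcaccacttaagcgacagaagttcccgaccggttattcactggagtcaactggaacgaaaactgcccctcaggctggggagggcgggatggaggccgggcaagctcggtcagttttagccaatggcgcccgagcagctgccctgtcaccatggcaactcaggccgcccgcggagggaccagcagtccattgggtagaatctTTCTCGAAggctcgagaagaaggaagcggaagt
Hspa2: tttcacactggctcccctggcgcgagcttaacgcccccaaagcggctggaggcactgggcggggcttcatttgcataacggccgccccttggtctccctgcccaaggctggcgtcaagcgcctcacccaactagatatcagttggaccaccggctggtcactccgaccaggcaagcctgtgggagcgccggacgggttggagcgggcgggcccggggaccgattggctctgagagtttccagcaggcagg

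The windows of *Hspa1a* and *Hspa1b* were identical at 247 of 250 positions. Counted from 1 at the left end, and with the base of *Hspa1a* first, the differences were C44T, T47C and T249G. Both windows hold GAAGATTC, 97 to 104 bases before the start, outside the positions that differ. *Hsph1* has TTCTCGAA 26 to 33 bases before the start, and *Hspa2* has neither form. Before another RefSeq start of *Hsph1*, whose window is not printed, the same letters lie at 47 to 54 bases. Of 32851 promoters of the same length, 6.69% held GAANNTTC and 7.17% held TTCNNGAA. For 9 of the 10 genes a promoter was in the table, and those of *Hspa4*, *Hspa4l*, *Hspa12a*, *Hspa14* and *Hspbp1* held neither form. These matches describe letters in a window and are not binding sites shown by these data.

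*Hspa1b* was lower in the cords of *Neat1*-KO mice. The Neat1-KO libraries had 62, 141, 103 and 114 counts, or 3.19, 5.68, 4.78 and 4.35 CPM. The Neat1-WT libraries had 205, 291 and 186 counts, or 9.28, 13.6 and 9.48 CPM. All Neat1-KO libraries were below all Neat1-WT libraries, with Neat1-KO replicate 1 the lowest and Neat1-WT replicate 3 the highest. Mean levels were 4.50 ± 1.04 (SD, n = 4) and 10.8 ± 2.43 CPM (SD, n = 3), for Neat1-KO and Neat1-WT in turn. This gave a log2 fold change of -1.25 (95% interval -1.69 to -0.82, adjusted p = 0.0888, edgeR quasi-likelihood test), past both thresholds of the study, 0.1 for the adjusted p and 0.58 for the size of the log2 fold change. In the fits without replicate 3 or 4 of Neat1-KO, or replicate 2 or 3 of Neat1-WT, *Hspa1b* no longer passed, with adjusted p = 0.157, 0.311, 0.170 and 0.926 (edgeR), while its log2 fold change in those fits was between -1.35 and -1.05.

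*Hspa1a* had 127, 198, 138 and 161 counts in the Neat1-KO libraries, or 6.52, 7.98, 6.40 and 6.14 CPM. In the Neat1-WT libraries it had 247, 247 and 181 counts, or 11.2, 11.5 and 9.23 CPM. The groups did not overlap here either, and Neat1-KO replicate 2 was the highest of its group for both genes. The log2 fold change of -0.65 (95% interval -0.97 to -0.34) did not pass over all genes in this fit (adjusted p = 0.485, edgeR). The study, in its own analysis of these libraries, reported both *Hspa1a* and *Hspa1b* as significantly lower. It also reported both as lower by qRT-PCR, and the HSPA1A protein as lower by Western blotting. For each gene of the pair the exact permutation test over the 35 assignments of 4 and 3 libraries gave p = 0.0286, two-sided, which is the smallest it can give. *Hspa1a* was called by the DESeq2 Wald test (adjusted p = 0.0360) and by edgeR with no filter on low counts (adjusted p = 0.0132). *Gm20481*, a protein-coding gene on the other strand, covers 564 bases of the *Hspa1a* exon, and it was at 2.41 to 3.99 CPM in Neat1-KO against 4.18 to 5.25 CPM in Neat1-WT libraries. Whether counting used the strand was not given in the sources used here, so reads in that overlap cannot be assigned.

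**Figure D2:**
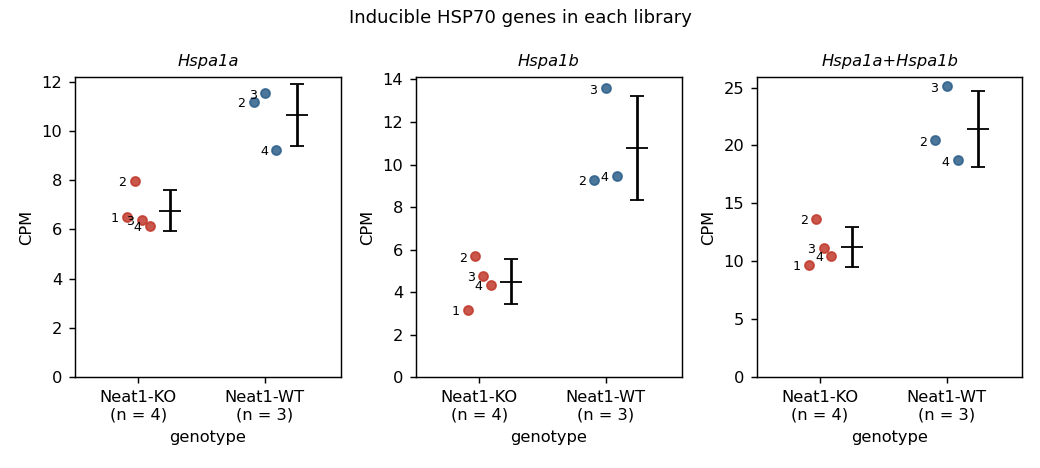
CPM of *Hspa1a*, of *Hspa1b* and of both added together, with 1 point per library, marked by its replicate number, and the mean ± SD beside the points. In each panel the 4 Neat1-KO libraries sit below the 3 Neat1-WT libraries, at 9.71 to 13.7 CPM against 18.7 to 25.1 CPM for the sum.

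The uniquely mapped counts of *Hspa1a* and *Hspa1b* were also added together before the fit, which brings back no read that matched both genes. Together they reached 11.3 ± 1.71 CPM in the Neat1-KO libraries (SD, n = 4) against 21.4 ± 3.31 CPM in the Neat1-WT libraries (SD, n = 3). That sum had a log2 fold change of -0.93 (95% interval -1.22 to -0.63, adjusted p = 0.0504, edgeR), or 47.4% lower. The sum also failed to pass when replicate 3 or 4 of Neat1-KO, or replicate 2 or 3 of Neat1-WT, was left out (adjusted p = 0.124, 0.303, 0.207 and 0.535, edgeR). *Hspa1b* made up 32.8%, 41.6%, 42.7% and 41.5% of the pair's counts in the Neat1-KO libraries and 45.4%, 54.1% and 50.7% in the Neat1-WT libraries. The share was thus lower in every Neat1-KO library, with means of 39.6% ± 4.60 (SD, n = 4) and 50.0% ± 4.40 (SD, n = 3).

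Levels of cell type markers are given beside this difference. Of 9 motor neuron markers, such as the acetylcholine and choline transporter genes *Slc18a3* and *Slc5a7*, 8 were lower in Neat1-KO libraries, with a median log2 fold change of -0.30. None was called in the reported edgeR fit, and 1 was called by DESeq2 and by edgeR with no filter on low counts, with the replicate block and without Neat1-KO replicate 1. Over all genes these settings called, in turn, 27 of 18449, 124 of 30996, 39 of 18449 and 31 of 18339. The reported fit called 6 of 18449. An unadjusted p under 0.05 was reached by 4 of the 9, where 4.64% of all genes tested reached it and 48.2% had a log2 fold change below 0. *Chodl* was the marker whose libraries did not overlap, at 27.7 to 45.4 CPM against 47.2 to 62.3 CPM (log2 fold change -0.59, adjusted p = 0.719, edgeR). Of all genes tested, 2.57% did not overlap and were lower. The summed level of the 9 was 324 to 402 CPM in Neat1-KO and 424 to 507 CPM in Neat1-WT libraries, without overlap, and none of the 9 was at 0.

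All 8 oligodendrocyte markers were lower too, with a median of -0.16 and none called, and 3 of them, *Mobp*, *Cldn11* and *Ermn*, had an unadjusted p under 0.05 and no overlap. Over all genes tested, 4.64% had an unadjusted p under 0.05. Libraries did not overlap for 5.47% of all genes in either direction, and for 2.57% as lower. The summed levels of the 8 markers overlapped at 34263 to 37243 CPM against 35920 to 43955 CPM. Of 10 markers of neurons in general, *Gad1* and *Slc6a5*, genes of inhibitory neurons, were higher without overlap (log2 fold changes 0.14 and 0.20, adjusted p = 0.992 for both, edgeR). Of 10 microglial markers, *Cd68* was higher without overlap (0.50, adjusted p = 0.992, edgeR). The summed levels of both lists overlapped, as did those of astrocytes, oligodendrocyte precursors, blood vessels, meninges, blood and sensory ganglia. Of the microglial markers 9 were higher and 1 lower, with a median of 0.074. Of 8 meningeal markers 7 were higher and 1 lower, with a median of 0.23 that ran from -0.11 to 0.60 over the alternatives. Of 7 blood markers 6 were lower and 1 higher, with a median of -0.26. None of these was called in the reported fit. For 16 immediate early genes, which respond within minutes to handling and activity, the sums also overlapped, at 218 to 287 CPM against 233 to 247 CPM. In bulk cord, fewer cells of a type and less RNA per cell cannot be told apart, and the part of these markers in the lower *Hspa1a* and *Hspa1b* was not tested. By staining, the study counted fewer ChAT-positive motor neurons in *Neat1*-KO mice with hSOD1G93A at 8 weeks. That count was made in lumbar cord, whereas these libraries are from cervical cord.

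*Hspa8* (ENSMUSG00000015656, chr9:40800984-40810087, plus strand), the constitutive gene, showed no difference between genotypes that the test could detect. It was at 1763, 1827, 2019 and 1839 CPM in Neat1-KO and at 2276, 1743 and 1598 CPM in Neat1-WT libraries. The Neat1-WT libraries held both the highest and the lowest value, so the groups overlapped fully. Its fitted log2 fold change was -0.0081 (95% interval -0.23 to 0.22, adjusted p = 0.997, edgeR), an interval that does not reach 0.58 on either side.

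*Hspa8* also has near copies in the genome, and 36.6% of the 100-base windows of its longest coding transcript were unique to it. The processed pseudogene *Gm15459* (chr5:5781615-5783555, minus strand), named after its values were seen, shares 58.5% of these windows. In all, 9 genes share some of them, among them a long non-coding RNA gene that also shares 58.5%. *Gm15459* was at 380 CPM in Neat1-KO replicate 1 and at 30.9, 31.9 and 31.7 CPM in Neat1-KO replicates 2 to 4. In the Neat1-WT group it was at 34.9 CPM in replicate 2 and at 404 and 350 CPM in replicates 3 and 4. The 3 libraries with high *Gm15459* were the 3 with the lowest *Hspa8*, and they came from both genotypes. With the counts of both genes added together, the levels were 2143, 1858, 2051 and 1870 CPM against 2311, 2147 and 1948 CPM, and the coefficient of variation over the 7 libraries was 8.12% in place of 11.8% for *Hspa8* alone. For this sum the log2 fold change was -0.11 (95% interval -0.28 to 0.063, adjusted p = 0.992, edgeR). How reads were divided between these genes was not tested, so the level of *Hspa8* in single libraries is uncertain. The *Gm15459* counts do not bound this uncertainty, since only uniquely mapped reads were counted.

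**Figure D3:**
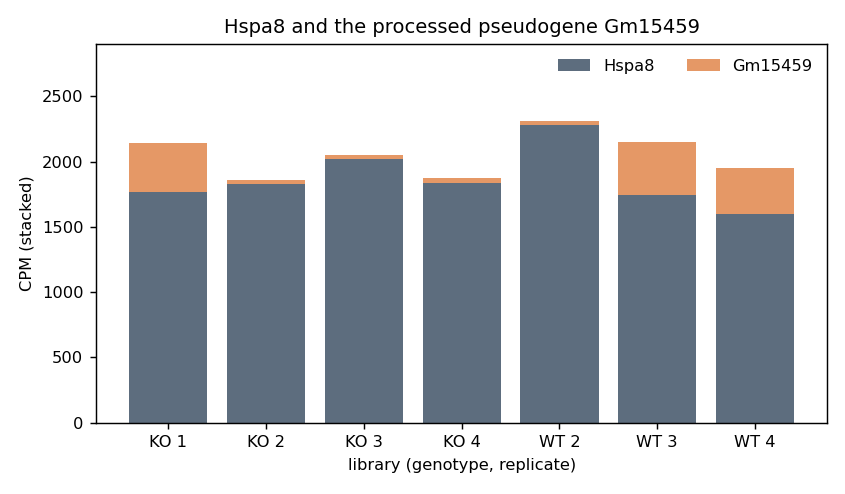
CPM of *Hspa8* (grey) and of the processed pseudogene *Gm15459* (orange), stacked, in each library. *Gm15459* reaches 350 to 404 CPM in 3 libraries, the first Neat1-KO bar and the last 2 Neat1-WT bars, and stays at 30.9 to 34.9 CPM in the other 4.

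The comparison of inducible with constitutive genes was made inside each library, as counts of *Hspa1a* and *Hspa1b* per 1000 counts of *Hspa8*. This ratio was 5.51, 7.48, 5.54 and 5.70 in the Neat1-KO libraries and 8.99, 14.4 and 11.7 in the Neat1-WT libraries. The groups did not overlap, and the means were 6.06 ± 0.952 (SD, n = 4) and 11.7 ± 2.71 (SD, n = 3), a difference of -0.94 between mean log2 ratios. With *Gm15459* added to *Hspa8*, the ratio was 4.53 to 7.35 in Neat1-KO and 8.85 to 11.7 in Neat1-WT libraries, a difference of -0.82. The ratio is given as a description, since its parts were tested on their own.

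**Figure D4:**
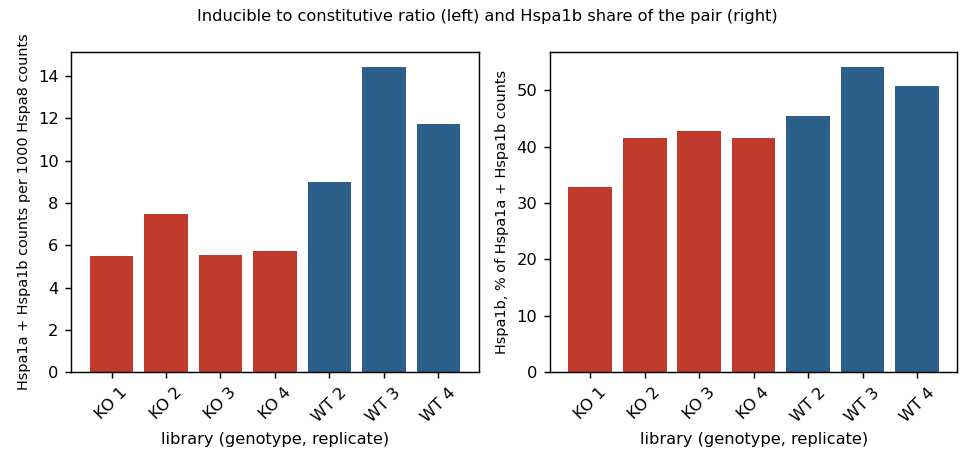
On the left, counts of *Hspa1a* plus *Hspa1b* per 1000 counts of *Hspa8*, and on the right, the share of *Hspa1b* in the pair's counts (%), with 1 bar per library, red for Neat1-KO and blue for Neat1-WT. The highest Neat1-KO bars, 7.48 on the left and 42.7% on the right, are below the lowest Neat1-WT bars, 8.99 and 45.4%.

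*Hspa2* (ENSMUSG00000059970, chr12:76404176-76406938, plus strand), an HSP70 best known from germ cells, was at a low and even level. It had 17.7, 20.5, 21.2 and 20.5 CPM in Neat1-KO and 20.2, 19.9 and 20.5 CPM in Neat1-WT libraries. Its log2 fold change was -0.016 (95% interval -0.22 to 0.19, adjusted p = 0.997, edgeR), and all of its 100-base windows were unique.

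Of the HSP110 genes, which encode large HSP70 relatives that act as exchange factors, none passed the thresholds in edgeR or DESeq2. An unadjusted p under 0.05 was reached by 1 of the 3, against 4.64% of all genes tested. *Hsph1* (ENSMUSG00000029657, chr5:149614287-149636376, minus strand), the heat-inducible HSP105, was at 288, 261, 305 and 265 CPM in Neat1-KO and 365, 358 and 294 CPM in Neat1-WT libraries. Neat1-KO replicate 3 was above Neat1-WT replicate 4, so the groups overlapped by this pair of libraries. Its log2 fold change was -0.28 (95% interval -0.47 to -0.090, adjusted p = 0.912, edgeR), and the exact permutation test gave p = 0.0857, two-sided. With no filter on low counts its adjusted p was 0.0892 (edgeR), at a log2 fold change of -0.28, short of 0.58. *Hspa4* (chr11:53259814-53300457, minus strand) was at 242, 226, 255 and 240 CPM against 255, 245 and 249 CPM, with a log2 fold change of -0.050 (95% interval -0.19 to 0.092). *Hspa4l* (chr3:40744495-40796103, plus strand) was at 325, 293, 356 and 320 CPM against 387, 332 and 343 CPM, with a log2 fold change of -0.13 (95% interval -0.31 to 0.044). For both, the values of the genotypes overlapped.

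*Hspa4* and *Hspa4l* varied together from library to library. Over the 7 libraries Pearson's r of log2 CPM was 0.94 (exact permutation p = 0.000794, 0.0357 after Benjamini-Hochberg adjustment over 45 pairs of family genes). Spearman's rho was 0.96 (exact permutation p = 0.00278, adjusted 0.125). Without the 2 libraries farthest from the median of *Hspa4*, r was 0.97, and on deviations from the genotype means it was 0.93. Among the other 44 pairs the smallest adjusted p of r was 0.112, that of *Hspa1a* and *Hspa1b*, whose genotypes form separate clusters. On deviations from the genotype means r of this pair was 0.58. The points share library size and tissue composition.

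The remaining genes differed less. *Hspa12a* (chr19:58795750-58943654, minus strand), a distant HSP70 relative expressed in brain, was at 268, 283, 252 and 254 CPM in Neat1-KO and 289, 276 and 282 CPM in Neat1-WT libraries, with a log2 fold change of -0.095 (95% interval -0.24 to 0.049). *Hspa14* (chr2:3488850-3512814, minus strand), the HSP70 partner in a complex at the ribosome, was at 24.1, 19.6, 20.1 and 19.1 CPM against 22.1, 19.5 and 21.1 CPM, with a log2 fold change of -0.014. *Hspbp1* (chr7:4660521-4685068, minus strand), a nucleotide exchange factor that lowers HSP70 activity, was at 75.2, 65.5, 52.4 and 61.8 CPM against 63.8, 60.4 and 53.1 CPM. *Hspbp1* was the only gene of the 10 with a fitted value above 0, at a log2 fold change of 0.11 (95% interval -0.14 to 0.35). In all 3 the libraries of the genotypes overlapped. *Hspa14* shares 13.1% of its 100-base windows with the read-through gene *Gm45902* on the same strand, and *Hspa12a* overlaps *Eno4* on the other strand by 166 bases.

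Over the family, 1 of 10 genes was called, *Hspa1b*, where 0.0325% of all genes tested were called in either direction and 0.0217% were called as lower. The libraries did not overlap for 2 of the 10, both lower, where 2.57% of all genes did not overlap and were lower, and 5.47% did not overlap in either direction. An unadjusted p under 0.05 was reached by 3 of the 10, *Hspa1a*, *Hspa1b* and *Hsph1*, against 4.64% of all genes. The log2 fold change was below 0 in 9 of the 10, against 48.2% of all genes, with a median of -0.072 against 0.0062. In the 8 genes other than the inducible pair the values ran from -0.28 to 0.11 with a median of -0.033, and their adjusted p-values were between 0.912 and 0.997 (edgeR). The intervals of all 8 lay inside the limits of ±0.58, and their upper bound was at most 0.35. The signs of *Hspa8*, *Hspa2* and *Hspa14*, the fitted values nearest to 0, changed under some of the alternatives.

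**Figure D5:**
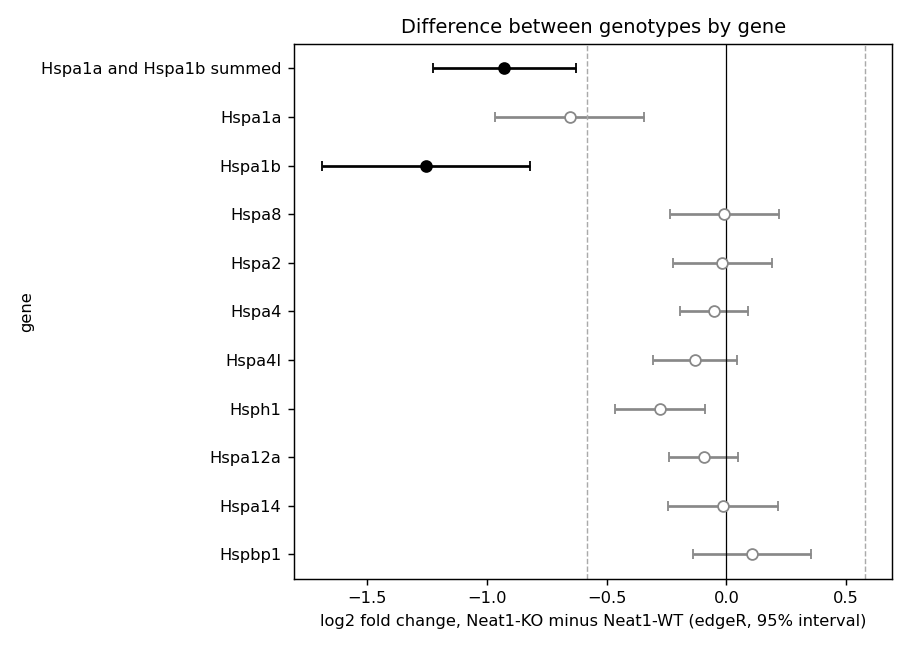
Fitted log2 fold change, Neat1-KO minus Neat1-WT, with its 95% interval for the sum of the inducible pair and each of the 10 genes. Filled points passed both thresholds and dashed lines mark ±0.58, and the sum and *Hspa1b* are the filled points, at -0.93 and -1.25.

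Other genes of the HSP70 cycle were examined by list. None of the J-domain partners, the exchange factors and adaptors, the heat shock factor genes or the other HSP70 genes listed was called by edgeR, by DESeq2 or under any of the other alternatives, and 2, 1, 0 and 1 of them, list by list, had an unadjusted p under 0.05. Over all genes tested, 4.64% had an unadjusted p under 0.05 and 48.2% had a log2 fold change below 0. The share that did not overlap and was lower was 2.57%. Of 15 J-domain partners, 10 were lower and 5 higher in Neat1-KO libraries, and the median log2 fold change was -0.055. *Dnaja4*, a cytosolic J-domain protein, was the member whose libraries did not overlap, at 56.9 to 65.7 CPM against 67.6 to 72.0 CPM (log2 fold change -0.19, adjusted p = 0.992, edgeR). Of 12 exchange factors and adaptors, 7 were lower and 5 higher, with a median of -0.071. The HSP70 exchange factors *Bag3*, at 43.3 to 48.3 against 48.4 to 51.9 CPM, and *Bag4*, at 41.5 to 43.3 against 44.4 to 46.3 CPM, did not overlap, with log2 fold changes of -0.12 and -0.11 (adjusted p = 0.992 for both, edgeR).

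Among 6 genes of the heat shock factors and their binding proteins, 5 were lower and 1 higher. The smallest unadjusted p-values belonged to *Hsf5*, at 0.206 to 0.882 against 0.634 to 0.816 CPM, and *Hsf2*, at 17.7 to 21.9 against 19.4 to 21.6 CPM, and both overlapped. *Hsf1*, the regulator of the inducible genes, named after its values were seen, was at 28.1 to 31.4 CPM against 28.9 to 31.8 CPM, with a log2 fold change of -0.032 (adjusted p = 0.996, edgeR).

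Of 6 further HSP70 genes that are not among the 10, in the cytosol or in other compartments, 5 were lower and 1 higher. *Hspa5*, the HSP70 of the endoplasmic reticulum, was at 260, 241, 283 and 227 CPM in Neat1-KO and 346, 359 and 301 CPM in Neat1-WT libraries, without overlap, but it was not called (log2 fold change -0.41, adjusted p = 0.485, edgeR). *Hspa1l*, named for its place 546 bases from *Hspa1a* on the other strand, was at 7.79 to 9.56 CPM against 8.87 to 9.14 CPM, and the groups overlapped.

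All 19 genes of a list of heat shock targets, which holds *Hspa4l* and *Hsph1* but not the inducible pair, were lower in Neat1-KO libraries, with a median of -0.16. Of them 1 was called and 7 had an unadjusted p under 0.05. Over all genes tested, 48.2% had a log2 fold change below 0, 0.0325% were called and 4.64% had an unadjusted p under 0.05. The share that did not overlap and was lower was 2.57%. *Hspb1*, a small heat shock protein gene, was the called gene, at 28.3 to 31.6 CPM against 40.7 to 53.0 CPM (log2 fold change -0.63, adjusted p = 0.0750, edgeR). The list held no call once Neat1-KO replicate 2, Neat1-KO replicate 4, or either of Neat1-WT replicates 2 and 3 was dropped, or with *Xist* as a covariate, and the adjusted p of *Hspb1* is over 0.05. *Cryab*, another small heat shock protein gene, at 242 to 268 against 271 to 309 CPM, and *Hsp90ab1*, the constitutive cytosolic HSP90, at 1344 to 1422 against 1461 to 1577 CPM, also did not overlap, like *Dnaja4* and *Bag3* above. The list was lower in full under every scaling and test tried, with 1 exception, *Serpinh1*, a collagen chaperone, which was higher without Neat1-WT replicate 3.

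The genes with the pattern most like *Hspa1b* were sought among 16540 tested genes with a mean of at least 1 CPM, by Pearson's r of log2 CPM over the 7 libraries. They were *Nectin1* (r = 0.97), *Sbds* (0.97), *Gdf11* (0.96), *Hspb1* (0.96) and *Elf5* (0.95). For *Hspa1a* they were *Shc3* (0.99), *D17Wsu92e* (0.98), *Gdf11* (0.97), *Morc2b* (0.96) and *Dhrs3* (0.96), of which *D17Wsu92e* and *Morc2b* lie on chromosome 17 with *Hspa1a*. For *Hspa8* they were *Prr16* (0.98), *Gm1821* (0.98), *Stk24* (0.96), *Amer1* (0.96) and *Gm46430* (0.96). The coefficients are the highest of a great many over 7 points that share genotype, library size and composition, and they are given as a description.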

How the data were processed

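Libraries were directional, made from poly(A) RNA of the cervical spinal cords, and read as paired ends. Per the study's methods and the submitters' processing notes, reads were checked with FastQC 0.11.7, trimmed with Trimmomatic 0.38, aligned with HISAT2 2.1.0 and converted with SAMtools 1.9, and uniquely mapped reads were counted per gene with featureCounts 1.6.3. The authors deposited these whole-number counts for 55487 Ensembl genes, without normalization. The build is mm10 per the labels, and the annotation release and strand setting were not given in the sources used here. GENCODE M21 (GRCm38) named 55227 genes.

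In edgeR 4.0.16 (R 4.3.3), filterByExpr kept 18449 genes, TMM scaled the libraries, and the quasi-likelihood test was run with Benjamini-Hochberg adjustment over these genes. The study's thresholds were used for a call, 0.1 for the adjusted p and 0.58 for the size of the log2 fold change. Log2 CPM used a prior count of 2. CPM per kilobase used the union of annotated exons. Single genes were also compared by an exact permutation test. DESeq2 1.42.0, limma-voom (limma 3.58.1), other scalings and filters, *Xist* as a covariate, a replicate block and each library left out were the alternatives. Pairs of libraries of a genotype differed by more than sampling noise (chi-square per gene 8.11 to 18.0 over 9 pairs).

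The 10 family genes and all lists were chosen with earlier results of these data known. By rule, the genes named outside the family were *Neat1*, in each partner list those called or without overlap and otherwise the 2 with the smallest p, and the 5 genes most like *Hspa1b*, *Hspa1a* and *Hspa8*. Named outside the rule, after their values were seen, were *Hsf1*, *Hspa1l*, *Serpinh1*, single cell type markers, *Xist*, *Ddx3y* and genes that overlap or share sequence with the family (*Gm20481*, *Gm45902*, *Eno4* and *Gm15459*). The sum of *Hspa8* and *Gm15459* was added after seeing the data.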

Additional observations from a re-analysis of the deposited data

Results flagged for a closer look

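Among the 4 Neat1-KO libraries, 13 results were searched for a library far from the other 3, and 2 had one. Chance gives about 1 in 20 for a result chosen beforehand, but the 2 cannot be set against that rate. *Gm15459* was named after its values were seen, and the ratio to *Hspa8* shares its counts with other results among the 13. In the counts of *Hspa1a* plus *Hspa1b* per 1000 counts of *Hspa8*, Neat1-KO replicate 2 had 7.48 against 5.51 to 5.70 in the others, and its gap to the next library was 0.900 of the whole range. Neat1-KO replicate 2 was also the highest of its group for *Hspa1a* and for *Hspa1b*, and it was still below the lowest Neat1-WT library. For *Gm15459*, the pseudogene of *Hspa8*, Neat1-KO replicate 1 was at 380 CPM against 30.9 to 31.9 CPM, and the gap was 0.997 of the range. The levels of Neat1-WT replicates 3 and 4, at 404 and 350 CPM, were of the same size as that of Neat1-KO replicate 1.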

How the results depend on the processing

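The 10 family genes held 1 call in the reported fit. That count was 0 at an adjusted p under 0.05 and with *Xist* as a covariate. *Xist* had at most 4 counts in a library and *Ddx3y* at least 1047, so this covariate does not stand for a difference in sex. The count was 2, with *Hspa1a* added, with no filter on low counts and with DESeq2. Leaving out 1 library at a time gave 0 to 1. Over all genes the count of 6 became 124 with no filter, 27 with DESeq2 and 39 with the replicate block, and 3 (without Neat1-WT replicate 3) to 31 (without Neat1-KO replicate 1) with a library left out. For *Hspa1b*, the *Xist* covariate gave a log2 fold change of -1.39 and an adjusted p of 0.344 (edgeR), and over the 16 alternatives its fold change was between -1.39 and -1.05 and its adjusted p between 4.30e-10 and 0.926 (edgeR, DESeq2 or limma). The sum of *Hspa1a* and *Hspa1b* was at -1.07 with the *Xist* covariate (adjusted p = 0.122, edgeR) and at -1.03 to -0.80 with 1 library left out, and the causes of these losses were not tested. The ratio to *Hspa8* differed by -0.66 for *Hspa1a* alone and by -1.28 for *Hspa1b* alone. *Hspa8* changed sign with limma-voom (0.0058), the replicate block (0.033) and the *Xist* covariate (0.034), and ran from -0.11 to 0.16 with 1 library left out. *Hspa2* changed sign with the replicate block (0.037) and the *Xist* covariate (0.031), and ran from -0.046 to 0.034 with 1 library left out, and *Hspa14* from -0.096 to 0.028. Same-numbered libraries had correlations of -0.20 to -0.015 of their deviations from the genotype means, and those with different numbers had -0.21 to 0.17. The replicate numbers thus gave no sign of pairing, but so few pairs cannot exclude it. The replicate block changed no call of a family gene. In that block Neat1-KO replicate 1 has no partner and does not inform the genotype difference, so the setting is close to leaving it out. *Hspa1b* was at -1.11 with the block and at -1.13 without Neat1-KO replicate 1. With 62 to 291 counts per library, *Hspa1a* and *Hspa1b* are the least deeply counted genes of the family.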
